A study of Homo sapiens with 30 samples.

Results

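The genes described here are 10 epithelial transcription factors of the ELF, KLF and GRHL families, ELF1, ELF3, ELF4, ELF5, EHF, SPDEF, KLF4, KLF5, GRHL2 and GRHL3, chosen by name from the 26255 genes of the deposited RNA-seq table. The study asked how the oncogenic factor ERG and the AKT kinase together alter transcription in RWPE1 cells, an immortalized line of normal prostate epithelium. RNA was measured in RWPE1-vector cells, which carry empty retroviral vectors, in RWPE1-ERG cells, which stably express FLAG-tagged ERG, in RWPE1-mAKT cells, which express a myristoylated and so constitutively active AKT, and in RWPE1-ERG/mAKT cells, which express both. ERG binding was mapped in RWPE1-ERG/mAKT cells and in vehicle-treated VCaP cells, a prostate cancer line with its own ERG rearrangement, ERK2 binding in RWPE1-vector and ERG-expressing cells, and open chromatin by ATAC-seq in each line with ERG, mAKT or both. The repressive mark H3K27me3 was mapped in vector cells, in those with ERG, and in RWPE1-ERG S96E cells, which carry a phosphomimetic form of ERG. All RWPE1 lines were made by retroviral infection and drug selection of the same parent line and were grown in culture.

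ELF1, ELF3, ELF4, ELF5, EHF and SPDEF belong, like ERG itself, to the ETS family, whose DNA-binding domain recognises a GGAA core. ELF3, ELF5, EHF and SPDEF are mostly restricted to epithelia, whereas ELF1 and ELF4 are broadly expressed and best known from blood cells. KLF4 and KLF5 are zinc finger proteins that bind GC-rich and CACCC sequences, KLF4 being associated with differentiation and barrier formation and KLF5 with proliferating basal epithelial cells. GRHL2 and GRHL3 belong to the grainyhead family, which maintains epithelial junctions and, in the case of GRHL3, terminal differentiation of the epidermis.

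Each FPKM value (fragments per kilobase of transcript scaled by sequencing depth) in the table is pooled over the 3 libraries of a line, so the values carry no SD and no test between lines was made from them. A difference is stated as a fold and read against all other genes. A gene was called higher or lower when FPKM + 1 differed by at least 1.5-fold, and 12670 genes that reached 1 FPKM in at least one of the lines served as the background. ELF5 and SPDEF did not reach that level and 8 of the 10 factors did, GRHL3 only through the 2 lines with mAKT. ERG was listed at 0.264 FPKM in RWPE1-vector, 358 in RWPE1-ERG, 0.435 in RWPE1-mAKT and 328 in RWPE1-ERG/mAKT, as the labels require. Basal keratins (KRT5, KRT14) and luminal keratins (KRT8, KRT18, KRT19) were abundant in all 4 lines, while the 3 endothelial markers summed to at most 0.293 FPKM and the 5 fibroblast markers to between 1.94 and 2.31 FPKM, with COL3A1 listed at 0 in every line. Of the leukocyte markers, CD68 was at 24.3 to 28.9 FPKM, and PTPRC and CD3E were at or near 0. In bulk RNA, fewer cells with a transcript and less transcript per cell cannot be told apart.

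KLF5 was the most abundant of the 10 factors in every line and ELF5 was listed at 0 in every line. In RWPE1-vector cells KLF5 had 58.3 FPKM, more than 87.0% of the background genes, followed by ELF1 at 20.7, ELF4 at 15.1, GRHL2 at 6.88, KLF4 at 6.81, EHF at 3.74, ELF3 at 2.26, GRHL3 at 0.743 and SPDEF at 0.0742 FPKM. The order was different in RWPE1-ERG/mAKT cells, where ELF1 and ELF3 stood side by side at 23.7 and 23.4 FPKM behind KLF5 at 57.4 FPKM. There, ELF4 had 13.6, KLF4 12.7, GRHL2 11.8, GRHL3 4.70, EHF 4.48 and SPDEF 0.0328 FPKM. Without replicate values it is not known which neighbours in these orders differ beyond their spread.

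**Figure D1:**
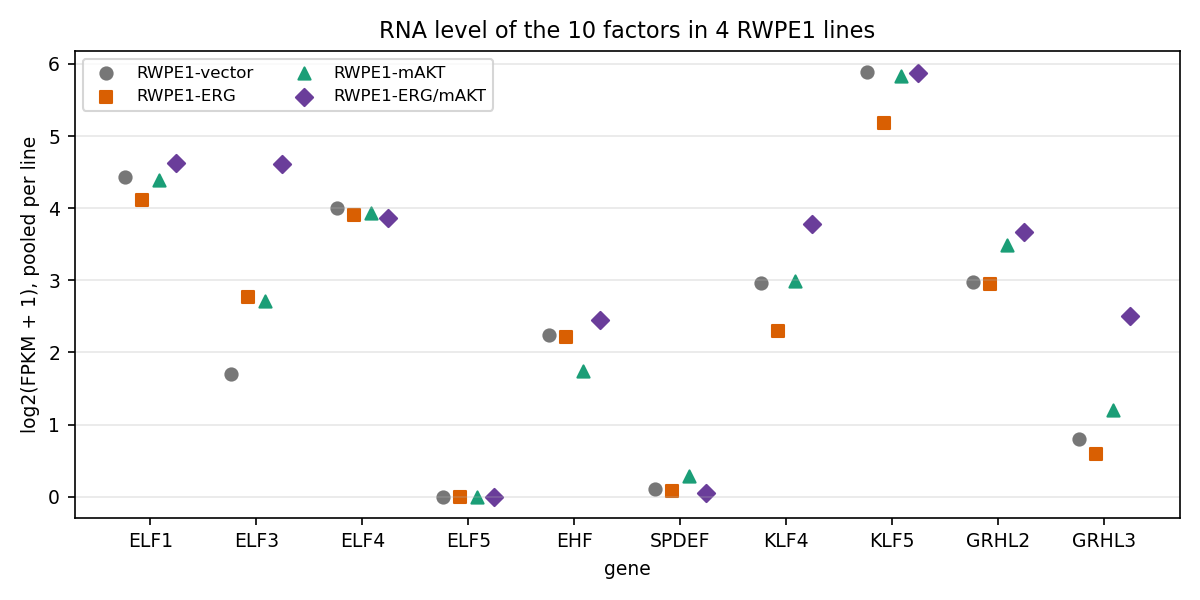
Pooled RNA level of each factor in the 4 lines, as log2(FPKM + 1) on the vertical axis, with 1 point per line and no error because the table holds 1 value per line. ELF3, KLF4 and GRHL3 are highest in RWPE1-ERG/mAKT, KLF4 and KLF5 are lowest in RWPE1-ERG, and ELF5 lies at 0.

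ELF3, an ETS factor of glandular and other simple epithelia, varied most among the 10. Its level was 2.26 FPKM in RWPE1-vector, 5.81 in RWPE1-ERG, 5.57 in RWPE1-mAKT and 23.4 in RWPE1-ERG/mAKT. ERG alone and mAKT alone thus gave similar levels, 2.57-fold and 2.46-fold above vector, and both together gave a level 10.4-fold above vector. The product of the single folds would give 14.3 FPKM. In percentile terms ELF3 moved from above 16.3% of the background genes in RWPE1-vector to above 71.2% in RWPE1-ERG/mAKT.

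GRHL3 had a low level that was higher with both transgenes. It was listed at 0.743 FPKM in RWPE1-vector, 0.511 in RWPE1-ERG, 1.29 in RWPE1-mAKT and 4.70 in RWPE1-ERG/mAKT, 6.33-fold above vector and 9.20-fold above RWPE1-ERG. The table gives GRHL3 and its neighbour STPG1, a gene of the opposite strand, the same locus, and STPG1 stayed between 4.41 and 5.59 FPKM in the 4 lines. Counting by strand is not stated in the sources used here, so reads of genes that overlap on opposite strands, such as GRHL3 and STPG1 or ELF3 and its antisense RNA, cannot be told apart. GRHL2, the paralogue that controls junction genes in many epithelia, had 6.88 FPKM in RWPE1-vector, 6.69 in RWPE1-ERG, 10.3 in RWPE1-mAKT and 11.8 in RWPE1-ERG/mAKT, so that both lines with mAKT lay above both lines without it.

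KLF4 and KLF5 were lower with ERG alone and not with ERG and mAKT together. KLF4 had 6.81 FPKM in RWPE1-vector, 3.90 in RWPE1-ERG, 6.95 in RWPE1-mAKT and 12.7 in RWPE1-ERG/mAKT. RWPE1-ERG was therefore 1.75-fold below vector and RWPE1-ERG/mAKT 1.87-fold above it. KLF5 had 58.3 FPKM in RWPE1-vector, 35.1 in RWPE1-ERG, 56.0 in RWPE1-mAKT and 57.4 in RWPE1-ERG/mAKT. Only RWPE1-ERG stood apart for KLF5, 1.66-fold below vector, and the other three lines lay between 56.0 and 58.3 FPKM.

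EHF, an ETS factor of glandular epithelium and a close relative of ELF3, was lowest with mAKT alone. Its values were 3.74 FPKM in RWPE1-vector, 3.63 in RWPE1-ERG, 2.35 in RWPE1-mAKT and 4.48 in RWPE1-ERG/mAKT. The broadly expressed ETS factors moved least. ELF4 was between 13.6 and 15.1 FPKM in the 4 lines, and ELF1 had 20.7 FPKM in RWPE1-vector, 16.2 in RWPE1-ERG, 20.0 in RWPE1-mAKT and 23.7 in RWPE1-ERG/mAKT. SPDEF, an ETS factor of prostate luminal and goblet cells, was near absent, at 0.0742, 0.0565, 0.214 and 0.0328 FPKM in the same order of lines, and no fold is read from these values.

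Comparing RWPE1-ERG with RWPE1-vector, 1 of the 8 expressed factors was called higher, ELF3, beside 7.27% of background genes, and 2 were called lower, KLF4 and KLF5, beside 2.92%. Their median log2 ratio of FPKM + 1 was -0.15, and the median over all 12670 genes was -0.01. In the comparison of RWPE1-mAKT with RWPE1-vector, ELF3 alone was called higher, beside 2.19% of genes, and 0 were called lower, beside 1.89%. EHF at a log2 ratio of -0.50 and GRHL2 at 0.52 lay just inside the limits.

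With ERG and mAKT together the counts were on the higher side. Over RWPE1-ERG, 5 of 8 were called higher in RWPE1-ERG/mAKT, beside 4.21% of genes, namely GRHL3 (log2 ratio 1.92), ELF3 (1.84), KLF4 (1.49), GRHL2 (0.73) and KLF5 (0.69), and 0 were called lower, beside 6.85%. The median of the 8 factors was 0.71 and that of all genes -0.04. Over RWPE1-mAKT, 4 of 8 were called higher, ELF3, GRHL3, KLF4 and EHF, beside 4.43%, and 0 lower, beside 2.45%. Over RWPE1-vector, 4 of 8 were called higher, ELF3, GRHL3, KLF4 and GRHL2, beside 5.41%, and 0 lower, beside 3.34%. These comparisons share the RWPE1-ERG/mAKT values and are not independent of each other. GRHL3 is among the 8 only through the lines with mAKT. Its calls over RWPE1-ERG and RWPE1-vector are thus partly built into its inclusion.

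**Figure D2:**
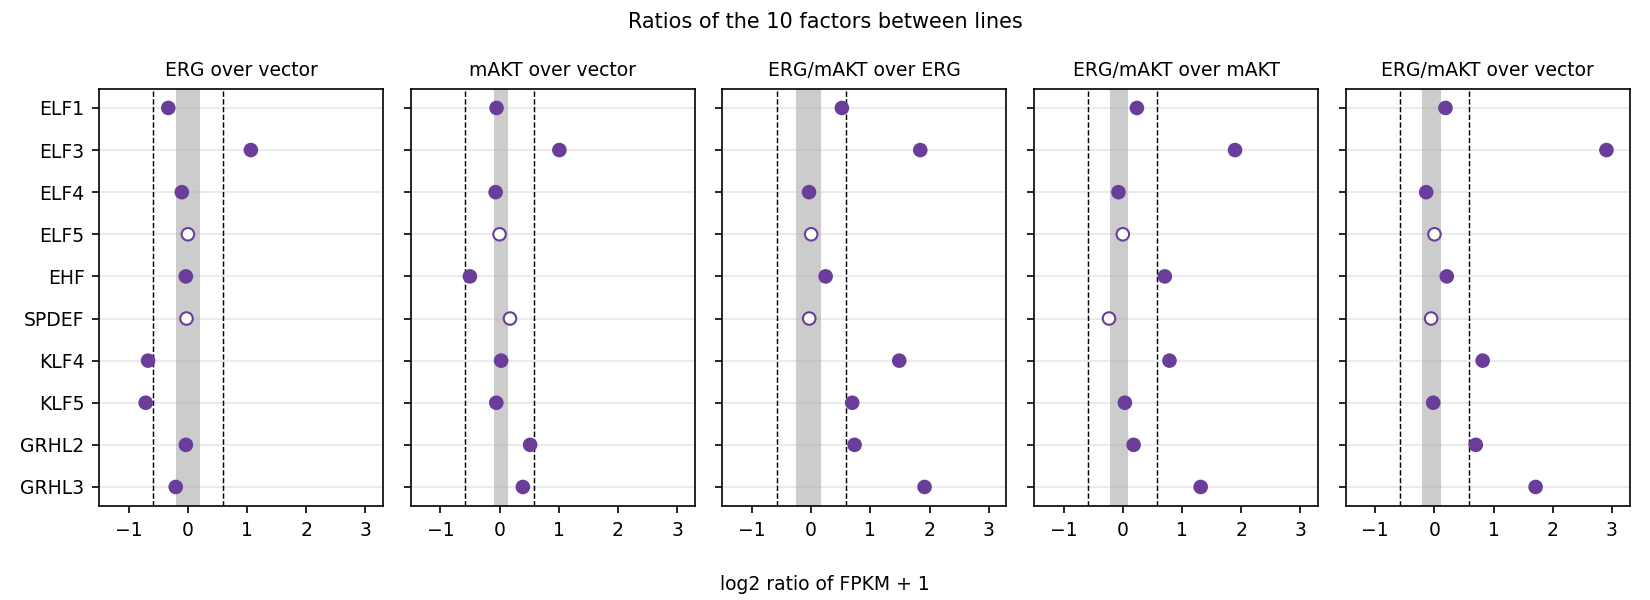
Log2 ratio of FPKM + 1 for each factor in 5 comparisons of lines. The grey band runs from the lower to the upper quartile of the 12670 background genes, dashed lines mark 1.5-fold, and open circles are the 2 factors below 1 FPKM in every line; no factor lies past the lower line in the 3 comparisons of RWPE1-ERG/mAKT.

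The ratio that ERG gave was higher with mAKT than without it. The log2 ratio of RWPE1-ERG/mAKT over RWPE1-mAKT, minus that of RWPE1-ERG over RWPE1-vector, was positive for all 8 expressed factors, and 7 of them lay above the upper quartile of the background, 0.15. The median difference was 0.75 for the 8 factors and -0.06 for all 12670 genes, with a lower quartile of -0.29. GRHL3 had a difference of 1.52 and KLF4 one of 1.46, higher than in 99.0% and 98.9% of the background genes. GRHL3 is among the 8 only through the lines with mAKT, so its difference is not taken as support. KLF4 changed direction, with a ratio of -0.67 without mAKT and 0.79 with it. ELF3 had ratios of 1.06 and 1.90, KLF5 -0.71 and 0.03, and EHF -0.04 and 0.71, so that the differences of these 3 genes, 0.83, 0.75 and 0.74, were alike in size although their ratios were not. ELF4 had a difference of 0.03. No test of these differences was possible on pooled values.

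**Figure D3:**
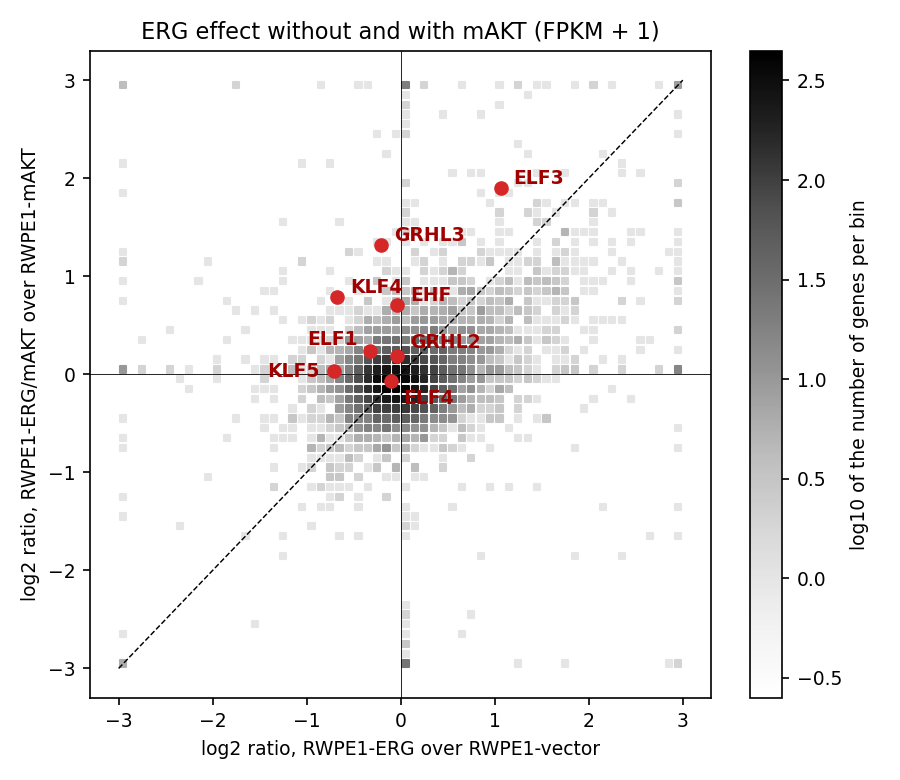
ERG effect with mAKT (vertical axis) against the ERG effect without it (horizontal axis), both as log2 ratios of FPKM + 1. Grey squares are bins of the 12670 background genes, with ratios past 3 drawn at the edge, red points are the 8 expressed factors, and the dashed line marks equal effects; all 8 points lie above the line.

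The sums of basal and of luminal markers stood apart in RWPE1-ERG. The summed level of the 4 basal markers (KRT5, KRT14, KRT15, TP63) was 6131 FPKM in RWPE1-vector, 1971 in RWPE1-ERG, 6261 in RWPE1-mAKT and 5021 in RWPE1-ERG/mAKT, and that of the 3 luminal keratins was 1806, 4569, 2062 and 2533 FPKM. The line with the lowest KLF4 and KLF5 thus also had the lowest basal and the highest luminal sum. KRT5 and KRT14 made up most of the basal sum, and KRT15 went the other way, from 33.3 FPKM in RWPE1-vector to 80.3 in RWPE1-ERG and 279.7 in RWPE1-ERG/mAKT. In RWPE1-ERG/mAKT, where KLF4 and KRT15 were highest, KRT14 was at 1185 FPKM against 2936 in RWPE1-vector and KRT5 at 3519 against 3126. Whether the make-up of the cultures had a part in the levels of the factors was not tested.

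The genes most like each factor were taken as the 3 with the smallest distance between centred log2(FPKM + 1) profiles over the 4 lines, among 9315 other genes of at least 5 FPKM in any line. For ELF3 these were LCN2, which encodes lipocalin 2, at a distance of 0.27, ASS1, the argininosuccinate synthase gene, at 0.28 and the keratin gene KRT15 at 0.40. LCN2 had 0.945 FPKM in RWPE1-vector, 2.27 with ERG, 2.09 with mAKT and 12.0 with both. KLF4 was most like NUPR1 (0.21), a stress-response gene, IGSF9 (0.22) and KLHDC8B (0.24). KLF5 was most like MAST4 (0.05), the kinase gene MAPK6 (0.05) and another KLF gene, KLF9 (0.08), and GRHL2 like the fatty acid binding protein gene FABP5 (0.05), PRRG4 (0.06) and the ferritin gene FTH1 (0.09). With 4 points a profile, such closeness is a description only.

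For the gene lists from here on, 7.27% of background genes were called higher and 2.92% lower in RWPE1-ERG over RWPE1-vector. In RWPE1-ERG/mAKT over RWPE1-ERG the shares were 4.21% and 6.85%. Counts near these shares are not read as results about a list. Among 15 close relatives of the factors, 13 were expressed, and 0 were higher and 1 lower in RWPE1-ERG than in RWPE1-vector. The 2 with the largest ratios were KLF9, at 12.8 and 7.85 FPKM in RWPE1-vector and RWPE1-ERG, and KLF13, at 22.9 and 15.5. Between RWPE1-ERG and RWPE1-ERG/mAKT, 3 were higher and 1 lower, the largest ratios being those of GRHL1, the third grainyhead factor, at 1.06 and 5.42 FPKM, and TFCP2L1, at 9.61 and 18.0 FPKM. GRHL1 had 1.76 FPKM in RWPE1-vector and 3.20 in RWPE1-mAKT, so that all 3 grainyhead genes were highest in RWPE1-ERG/mAKT.

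The 17 genes of epithelial junctions and epithelial splicing, several of which are known grainyhead targets, were all expressed. In RWPE1-ERG over RWPE1-vector 2 were higher and 0 lower, CLDN1 (5.11 and 13.3 FPKM in RWPE1-vector and RWPE1-ERG) and CLDN4 (8.23 and 14.9), both claudins of the tight junction. In RWPE1-ERG/mAKT over RWPE1-ERG 3 were higher and 0 lower, with the largest ratio for CLDN1, at 26.3 FPKM in RWPE1-ERG/mAKT. The median log2 ratio of the list was 0.33 in the first comparison and 0.12 in the second. CDH1, the E-cadherin gene, was between 33.7 and 44.9 FPKM in the 4 lines.

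Of the 11 genes of squamous differentiation, 2 were higher and 2 lower in RWPE1-ERG than in RWPE1-vector, the largest ratios being those of SPRR1B, a cornified envelope gene, at 6.47 and 1.48 FPKM, and of LCN2. In RWPE1-ERG/mAKT over RWPE1-ERG 6 were higher and 0 lower, with a median log2 ratio of 0.77. Of those called higher, IVL, SPRR1A and SPRR2A reached 1 FPKM only in the lines with mAKT. Their calls, and with them the count and the median, are partly built into their inclusion. SPRR1B had 74.8 FPKM in RWPE1-ERG/mAKT, and SPRR1A had 0.367 FPKM in RWPE1-ERG and 33.9 in RWPE1-ERG/mAKT. Both genes were already high in RWPE1-mAKT, at 45.9 and 20.3 FPKM. ELF3 and GRHL3 were also above RWPE1-vector there, at 5.57 and 1.29 FPKM, GRHL3 short of a call. With ERG and mAKT together they were at 23.4 and 4.70 FPKM.

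Of 12 other epithelial transcription factors, 10 were expressed. In RWPE1-ERG over RWPE1-vector 1 was higher, GATA3 (1.52 and 5.10 FPKM), and 1 lower, TP63, the basal cell regulator (36.3 and 21.3 FPKM). In RWPE1-ERG/mAKT over RWPE1-ERG 3 were higher and 0 lower, led by ZNF750 (0.359 and 2.76 FPKM) and OVOL1 (0.411 and 1.92 FPKM), both regulators of epidermal differentiation. ZNF750 and OVOL1 reached 1 FPKM only in RWPE1-ERG/mAKT, so their calls are partly built into their inclusion. SOX2 was listed at no more than 0.220 FPKM in the 4 lines. Of the 6 regulators and markers of epithelial to mesenchymal transition, 4 were expressed. None of these was called in RWPE1-ERG over RWPE1-vector, where VIM, the vimentin gene, at 737 and 1056 FPKM and SNAI2 at 68.5 and 55.9 had the largest ratios. In RWPE1-ERG/mAKT over RWPE1-ERG 1 was higher and 2 lower, VIM being at 288 and SNAI2 at 35.0 FPKM in RWPE1-ERG/mAKT.

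Only 3 of 8 secretory luminal genes were expressed, and KLK2 and KLK3 were listed at 0 in every line. In RWPE1-ERG over RWPE1-vector 0 were called, and the largest ratios were those of SLPI (68.6 and 48.6 FPKM) and MUC1 (1.01 and 1.64 FPKM). In RWPE1-ERG/mAKT over RWPE1-ERG all 3 were higher, AGR2 at 0.690 and 4.98 FPKM and SLPI, a secreted protease inhibitor, at 48.6 and 165 FPKM having the largest ratios. AGR2 reached 1 FPKM only in the lines with mAKT, so its call is partly built into its inclusion. AGR2 was higher in RWPE1-mAKT alone, at 7.27 FPKM, than with ERG added.

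Peaks were next counted within 20 kb of the locus that the table gives each gene, on build hg19. For GRHL3 that locus is shared with STPG1 and runs past the GENCODE end of GRHL3, 24690972. The peaks, open sites and H3K27me3 regions counted for GRHL3 therefore include those of the STPG1 region. ELF3 (chromosome 1, 201979690 to 201986315, plus strand) and GRHL3 (chromosome 1, 24645812 to 24741587, plus strand) share a chromosome, as do EHF (chromosome 11, 34642588 to 34684834, plus strand) and ELF5 (chromosome 11, 34500342 to 34535347, minus strand), and as do KLF5 (chromosome 13, 73629114 to 73651680, plus strand) and ELF1 (chromosome 13, 41506055 to 41593508, minus strand). KLF4 lies on chromosome 9 (110247133 to 110252047, minus strand), SPDEF on chromosome 6 (34505579 to 34524110, minus strand) and ELF4 on chromosome X (129198895 to 129244688, minus strand). GRHL2 is the longest of the 10 at 177285 bp. Each list comes from 1 library, without a replicate, and the median locus was 44.02 kb long for the 8 expressed factors and 32.8 kb for the background genes. The part of locus length in the counts was not tested.

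ERG peaks of RWPE1-ERG/mAKT cells lay within 20 kb of 7 of the 8 expressed factors, beside 32.5% of background genes, all but ELF4. There were 9 such peaks, 2 each at EHF and GRHL2 and 1 each at ELF1, ELF3, KLF4, KLF5 and GRHL3, and ELF5 and SPDEF had 0. They were weak. Their pileup was 3 to 9 reads, their fold enrichment over input 2.82 to 4.24, and the highest −log10 q-value was 0.986, so that 0 of 9 passed a q-value of 0.01, a limit met by 4.94% of the 9113 peaks of that list. The peak at GRHL3 lay in an intron of STPG1, 20237 bp beyond the end of GRHL3 in GENCODE. The peak at ELF1 lay in an intron 1350 bp past a start site, with a fold enrichment of 4.11, and the peak at KLF4 lay 10461 bp from the gene between genes, with one of 2.94. Of the EHF peaks, 1 was over a coding exon (4.24) and 1 in an intron (3.52). Both GRHL2 peaks were intronic, at 3.43 and 2.82, and the first, 2768 bp past a start site, overlapped an ERK2 peak of RWPE1-vector cells.

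In VCaP cells ERG peaks lay near 2 of the 8, EHF with 2 and GRHL2 with 5, beside 24.7% of background genes. One of the EHF peaks overlapped an ERG peak of RWPE1-ERG/mAKT cells in an intron of EHF, one of only 114 of the 9113 peaks, or 1.25%, that overlapped a VCaP peak at all. ERK2 peaks of RWPE1-vector cells were near 7 of 8, beside 76.6%, and those of RWPE1-ERG cells near 3 of 8, beside 33.4%. The 3 were ELF3, KLF5 and GRHL2. At GRHL2 the ERK2 peaks included overlapping peaks with summits 98 and 140 bp before a start site, with fold enrichments of 4.36 in RWPE1-ERG and 3.69 in RWPE1-vector, and a RWPE1-vector peak over a start site at 4.92. At KLF5 the strongest ERK2 peak of RWPE1-vector cells lay in an intron at 4.83, and the only one of RWPE1-ERG cells lay 2553 bp before the gene at 2.93. The 5 VCaP ERG peaks of GRHL2 were all intronic, with fold enrichments of 2.96 to 4.25. The RWPE1-vector list holds 41276 ERK2 peaks and the RWPE1-ERG list 5721, so the counts of these lists are not compared.

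**Figure D4:**
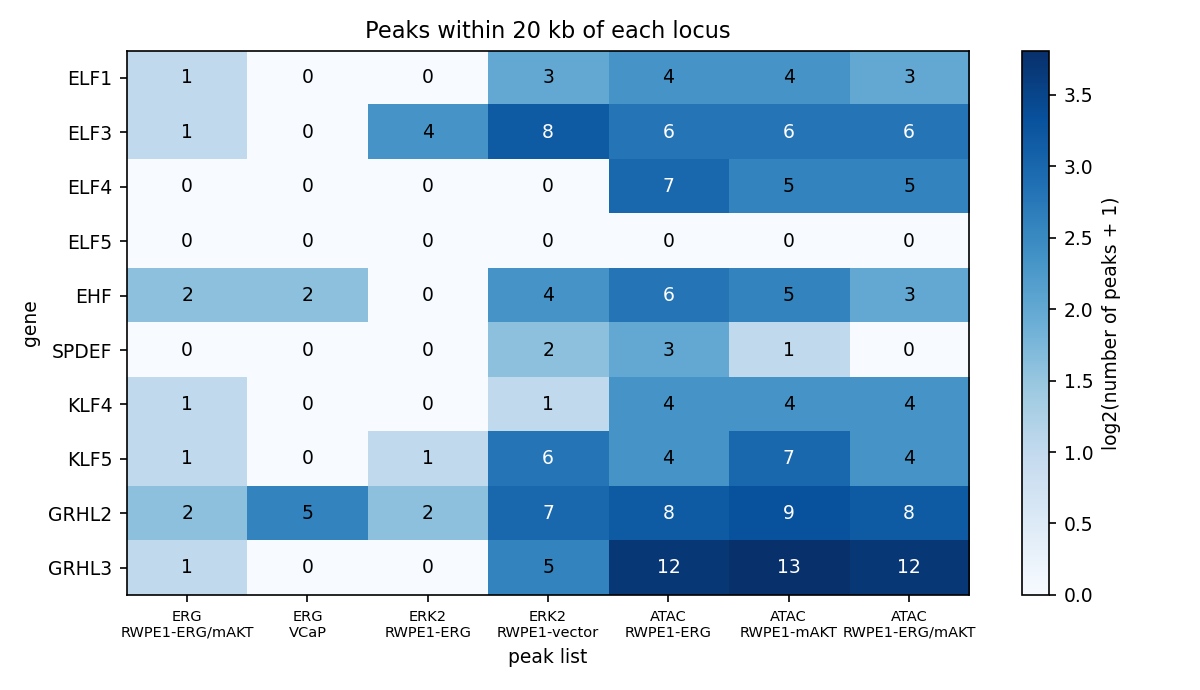
Number of listed peaks within 20 kb of each locus, for 7 peak lists (columns) and the 10 factors (rows), with the colour on a log2 scale. ELF3 has 4 ERK2 peaks in the RWPE1-ERG list and 8 in the RWPE1-vector list, GRHL2 has most of the VCaP ERG peaks, and ELF5 has no peak in any column.

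ELF3 was the factor with the most ERK2 peaks. In RWPE1-ERG cells it had 4, a number reached by 4.56% of background genes, and in the vector cells 8, reached by 5.30% in that longer list. The gene was singled out after these counts were seen. The 4 peaks of RWPE1-ERG cells had fold enrichments of 2.48, 3.29, 3.12 and 4.63. The first had its summit 358 bp past the downstream start of ELF3. The second lay in an ELF3 UTR, where a lncRNA exon is also annotated. The third lay 1568 bp past the end of the gene and the last 4678 bp past it, with a −log10 q-value of 1.58 for the last. The first and the third overlapped ERK2 peaks of the vector cells, where the third had a fold enrichment of 5.07 and a −log10 q-value of 2.05. The ERG peak of RWPE1-ERG/mAKT cells at ELF3, chr1:201977328-201977436, had its summit 340 bp inside the first exon of the longer ELF3 transcript, where the annotation also places an intron of the antisense RNA ELF3-AS1. Its fold enrichment was 4.03 and its pileup 5 reads. It overlapped an ATAC peak in all 3 lines and an ERK2 peak of RWPE1-vector cells, the weakest of that gene with a fold enrichment of 2.23.

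**Figure D5:**
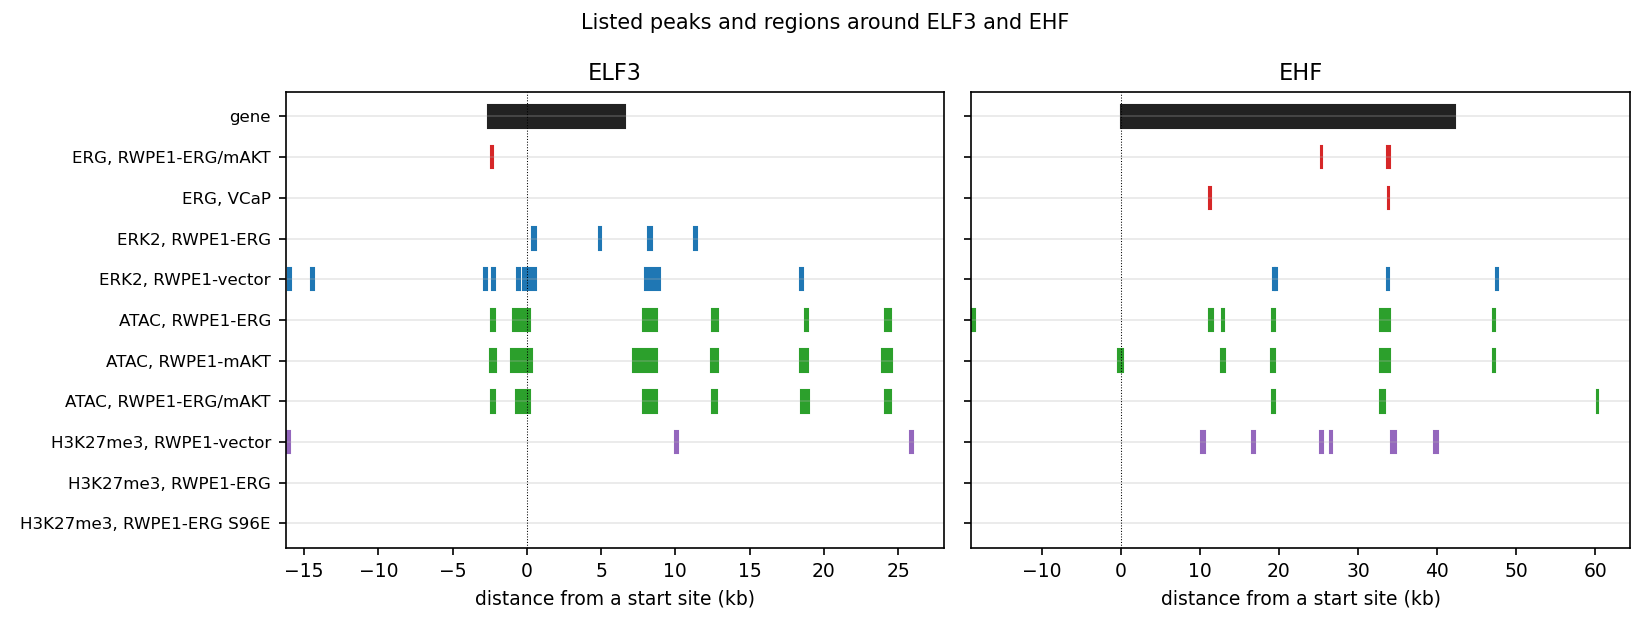
Listed peaks and H3K27me3 regions within 20 kb of ELF3 and EHF, by distance in kb from a start site of each gene (the downstream start of ELF3, the most upstream of EHF), with 1 row per list and the black bar for the gene in GENCODE. The 6 ATAC sites of ELF3 recur in all 3 lines, and at EHF an ERG peak of each cell type falls on 1 site about 34 kb into the gene.

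Sequences of 3 of these sites are given to show what lay under the peaks. Each is 201 bases of the hg19 plus strand around a summit, from the GRCh37 reference, and capitals mark any of these motifs on either strand. The ETS motif searched was AGGAAGT, with a second form of the same family written CGGAAGT. The AP-1 motif was TGAGTCA, whose reverse complement was searched as well and so gives the same matches. The grainyhead motif was AACNNGTT, a pattern that is its own reverse complement. The KLF motifs, named after the CACCC box, were CCACACCC and, as the alternative form that differs within it, CCCCACCC. The first is the ERG peak 13006 bp past the end of KLF5, the only one of the 9 with any of these motifs. The second is the EHF intron site with a listed ERG peak in both RWPE1-ERG/mAKT and VCaP cells. Its −log10 q-value was 0.155 in RWPE1-ERG/mAKT and 0.246 in VCaP cells, so it lacked support by q-value in either. The third is the ERK2 site past the end of ELF3, listed with and without ERG but without support by q-value in RWPE1-ERG cells.
KLF5 ERG site, chr13:73664630-73664830: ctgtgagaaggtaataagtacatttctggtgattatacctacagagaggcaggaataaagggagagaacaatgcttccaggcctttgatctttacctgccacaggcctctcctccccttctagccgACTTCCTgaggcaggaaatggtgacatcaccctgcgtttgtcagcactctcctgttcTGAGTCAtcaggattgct
EHF ERG site, chr11:34676413-34676613: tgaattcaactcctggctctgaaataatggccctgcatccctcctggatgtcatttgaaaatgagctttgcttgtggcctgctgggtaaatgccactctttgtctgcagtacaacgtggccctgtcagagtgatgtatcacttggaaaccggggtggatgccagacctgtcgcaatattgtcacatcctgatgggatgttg
ELF3 ERK2 site, chr1:201987860-201988060: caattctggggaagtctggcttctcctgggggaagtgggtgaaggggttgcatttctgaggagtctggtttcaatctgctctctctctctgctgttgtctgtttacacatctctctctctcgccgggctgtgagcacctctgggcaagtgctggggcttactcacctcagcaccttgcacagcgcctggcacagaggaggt

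The KLF5 site held an ETS motif that began 26 bases after the summit and an AP-1 motif that began 83 bases after it. The peak had a pileup of 9 reads, the highest of the 9 ERG peaks, a fold enrichment of 4.16 and a −log10 q-value of 0.986, and it overlapped an ATAC peak in all 3 lines. Over all 9113 ERG peaks of that list, 8.05% of windows of this length held AGGAAGT, 1.15% CGGAAGT, 8.45% the AP-1 motif and 3.70% the grainyhead motif. The 1 window with AGGAAGT among 9 is therefore about the share of the whole list. The EHF and ELF3 windows held none of the motifs, which says only that these letters were not there. The shorter GGAA core occurred 1 time in the EHF window and 2 times in the ELF3 window. The EHF site had a fold enrichment of 3.52 in RWPE1-ERG/mAKT and 3.14 in VCaP, overlapped an ERK2 peak of RWPE1-vector cells and lay in ATAC peaks of RWPE1-ERG and RWPE1-mAKT cells. The ATAC peak of RWPE1-ERG/mAKT cells at that place ended short of it.

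The promoters of 9 of the 10 factors were searched with the same motifs in 16 RefSeq windows of the GRCh38.p14 build. AGGAAGT was in 2, at KLF4 and SPDEF, beside 8.24% of all 35116 promoters, CCCCACCC in 3, at EHF, ELF4 and GRHL3, beside 11.1%, and the AP-1 motif in 1, at ELF4, beside 4.95%. CGGAAGT, CCACACCC and the grainyhead motif were in 0, beside 6.83%, 3.28% and 3.52%.

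Open chromatin was listed within 20 kb of all 8 expressed factors in RWPE1-ERG, beside 98.4% of background genes, in RWPE1-mAKT, beside 98.3%, and in RWPE1-ERG/mAKT, beside 97.7%. Merged over the 3 lines there were 63 sites at the 10 factors, of which 40, or 63.5%, were listed in every line, beside 53.5% of 41917 merged sites within 20 kb of background genes and 45.0% of all 77549. These shares were compared without a test. ELF3, with 6 sites, and KLF4, with 4, had each site in all 3 lines. Only presence in a list was compared, not the height of the peaks. The RNA levels of both genes differed between these lines, and a link with open chromatin was not tested. EHF varied more, with 2 of 8 sites in all 3 lines. The peak at its most upstream start was listed in RWPE1-mAKT alone, with a fold enrichment of 7.14, and a peak at a start within the gene in RWPE1-ERG alone, with 4.70. SPDEF had 3 sites in RWPE1-ERG, 1 in RWPE1-mAKT and 0 in RWPE1-ERG/mAKT, none of them at its start, and ELF5 had 0 in all 3. GRHL3, in the locus shared with STPG1, had 14 sites, 11 of them in every line. The RWPE1-ERG/mAKT list is the shortest, with 42081 peaks against 63354 in RWPE1-ERG and 57999 in RWPE1-mAKT, and the part of list size in these counts was not tested. Open chromatin of RWPE1-vector cells was not analysed here.

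H3K27me3 regions overlapped the locus of 5 of the 8 expressed factors in RWPE1-vector cells, beside 71.6% of background genes, of 0 of 8 in RWPE1-ERG, beside 21.4%, and of 2 of 8 in RWPE1-ERG S96E, beside 21.5%. The 2 were KLF4 and GRHL3. At KLF4 1 region covered 18.6% of the short locus in RWPE1-vector and 6.19% of it with ERG S96E, and within 20 kb there were 16 regions in RWPE1-vector, 5 in RWPE1-ERG and 8 in RWPE1-ERG S96E. The highest fold enrichment among them ran the other way, at 2.40, 2.72 and 3.48 in the same order, and the widest region was 1261, 1560 and 4390 bp. ELF5, which was listed at 0 FPKM, was the only factor with regions in its own locus in all 3 lines. It had 12 regions over 12.7% of that locus in RWPE1-vector, 1 over 0.908% in RWPE1-ERG and 4 over 3.43% in RWPE1-ERG S96E. SPDEF had 3 regions in its locus in RWPE1-vector and 2 in RWPE1-ERG S96E. Within 20 kb, KLF4, GRHL2 and SPDEF also had regions in all 3 lines. The vector list holds 492265 regions, the ERG list 228233 and the S96E list 252784, and of these only 29, 39 and 3413 had a q-value of at most 0.01, so single regions are weakly supported.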

How the data were processed

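RNA-seq of poly(A) RNA covered 3 libraries of each of 4 lines. The authors aligned reads to hg19 with TopHat2 and deposited a Cuffdiff table of FPKM for 26255 genes, pooled per line, in 6 pairs of lines. Its fold changes, test scores, p-values and q-values are the authors' own comparisons and were not used. The table's 0-based locus starts were shifted by 1. The authors aligned ChIP-seq and ATAC-seq reads with Bowtie2 and called peaks with MACS2. Per the file headers, versions were 2.1.2 and 2.2.7.1, with p-value limits of 0.001 for ERG in RWPE1-ERG/mAKT and 0.01 for ERK2. For every peak the deposited lists hold a signal (the pileup of reads), the fold enrichment over background and the −log10 of its p-value and q-value. The ChIP lists record 8393459 to 15020233 ERG or ERK2 ChIP reads where the headers give them. A list attached to the VCaP input and one attached to the VCaP LY294002 ChIP did not match their labels and were not used. LY294002 is a PI3K inhibitor.

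Ratios were computed as log2(FPKM + 1), with a threshold of 1.5-fold. An overlap was at least 1 bp. Distances and annotation came from GENCODE release 44 mapped to GRCh37, taking basic transcripts, and a start-site ATAC peak lay within 500 bp of a start. The members and lists were chosen with earlier results of these data known. All 10 members are named, with the 2 genes of largest ratio in each list for ERG over vector and ERG/mAKT over ERG, and the 3 most alike genes for members of at least 5 FPKM that varied at least 1.5-fold. Genes named beyond these (CDH1, SOX2, KLK2, KLK3, single markers) were chosen after their values were seen, and a few items that the rules would name are not reported here. Alternatives were other pseudocounts, folds, filters, windows, loci and q-value limits. The overlap, likeness, fold and motif code was tested on simulated data. Python 3.11.15, numpy and pandas were used.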

Additional observations from a re-analysis of the deposited data

Results flagged for a closer look

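KLF4 had an ERG effect of opposite direction without and with mAKT. The log2 ratio of FPKM + 1 was -0.67 for RWPE1-ERG over RWPE1-vector and 0.79 for RWPE1-ERG/mAKT over RWPE1-mAKT, both past 1.5-fold. The difference was not tested, because each line has 1 pooled value.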

How the results depend on the processing

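No paired analysis was possible because the deposited FPKM are pooled over the libraries of a line, and for the same reason no library could be left out. Under a 2-fold limit the called factors numbered 1 instead of 3 for ERG over vector, 3 instead of 5 for ERG/mAKT over ERG, 2 instead of 4 for ERG/mAKT over mAKT and 2 instead of 4 for ERG/mAKT over vector. A pseudocount of 0.1 FPKM gave 3 instead of 1 for mAKT over vector, EHF and GRHL3 being added, and a filter of 5 FPKM gave 2 instead of 4 for ERG/mAKT over mAKT. That filter, which leaves out EHF and GRHL3, gave 4 instead of 5 for ERG/mAKT over ERG and 3 instead of 4 for ERG/mAKT over vector. No called ratio of a factor changed sign under that pseudocount or under centring on the median of all genes, and 78 of 80 single ratios kept their side of the limit. The median difference of the ERG effect was 0.75 with either pseudocount, the smaller being chosen after the data were seen.

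A q-value of at most 0.01 left 0 factors with ERG peaks of RWPE1-ERG/mAKT, 0 with ERG peaks of VCaP, 0 with ERK2 peaks of RWPE1-ERG and 2 with ERK2 peaks of RWPE1-vector. Within 50 kb, 4 factors instead of 2 had VCaP ERG peaks and 6 instead of 3 had ERK2 peaks of RWPE1-ERG, and the GENCODE loci gave 5 for the latter. The ERG count of RWPE1-ERG/mAKT was 5 within 5 kb and 6 with GENCODE loci, where GRHL3 was lost. For H3K27me3 of RWPE1-vector, 1 factor had at least 10% of its locus covered and 2 had a region of at least 2-fold enrichment, and for RWPE1-ERG S96E both alternatives gave 0. The causes were not tested.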
